A study of Homo sapiens with 23 samples.

Results

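In NCI-H23 cells, 26040 of the 53255 distal regions that carried an H3K27ac peak in both libraries met no peak of H4K5acK8ac, the histone H4 tail acetylated at lysine 5 and lysine 8 together. The regions were found by intersecting the 2 deposited H3K27ac peak lists, which gave 78120 shared intervals. Of these, 24865 lay less than 1000 bp from an H3K4me3 peak of either replicate and were set aside as promoter-proximal. The 53255 that remained are called distal, and those sharing no base with an H4K5acK8ac peak of either replicate are called H4K5acK8ac-negative regions here. They made up 48.9% of the distal regions. The other 27215 are called H4K5acK8ac-positive: 8887 met a peak in 1 list and 18328 in both. The regions were thus chosen by the positions of H3K27ac, H3K4me3 and H4K5acK8ac peaks in these libraries. Negative means that neither H4K5acK8ac list has a peak there, and the absence of the modification was not measured.

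The data are chromatin immunoprecipitation sequencing (ChIP-seq) peak lists from NCI-H23, an established cell line of non-small cell lung cancer. The series holds 23 samples: 22 immunoprecipitated libraries, for 11 targets with 2 replicates each, and 1 input library that was not analysed here. The targets were 10 histone modifications and the protein BRD2, and H4K5acK8ac was detected with a mouse monoclonal antibody of the submitters' own production. The treatment protocol names JQ1, an inhibitor of BET bromodomains, and its solvent DMSO, but no label ties a library to either, so all libraries are given as NCI-H23 cells of unspecified treatment. The labels do not say whether replicates were separate cultures. The 22 lists hold 2889028 peaks, from 21580 for H3K4me3 replicate 1 to 277462 for H3K27me3 replicate 2. They give no read numbers, so the sequencing depth is unknown. The H4K8ac lists were the least alike in length, with 224726 peaks in replicate 1 and 116852 in replicate 2, and 64.7% and 28.1% of the BRD2 peaks had a q above 0.05.

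H3K27ac marks active enhancers and promoters, and H3K4me1 is the usual mark of enhancers away from promoters, where H3K4me3 is low. Histone H4 acetylation at lysines 5, 8 and 12 accompanies active chromatin, and BET proteins such as BRD2 bind acetylated H4 tails through their bromodomains. H3K36me3 is laid down along the bodies of transcribed genes, while H3K9me3 and H3K27me3 mark heterochromatin and Polycomb-repressed chromatin.

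The 8 targets that the rule did not use, with 16 lists, were compared between H4K5acK8ac-negative and H4K5acK8ac-positive regions. A region counts as carrying a mark when it shares at least 1 bp with a peak of that list. With 2 lists per target the smallest two-sided exact paired p is 0.5, and regions are not replicates, so values are given for each list with no test. Counting error of the shares among the negative regions was at most 0.606 percentage points (to either side, 95% Wilson interval). This interval takes regions as independent, although many follow one another along a chromosome, so it is too narrow where neighbours are alike. It also does not cover differences between libraries. A peak list cannot tell fewer cells with a mark from less of the mark per cell.

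H4K5acK8ac-negative regions were short and had weak H3K27ac. Their median width was 280 bp, with an interquartile range of 213 to 424 bp, and the widest spanned 5192 bp. Together they covered 9.34 Mb. Positive regions had a median of 505 bp, so the ratio of the medians was 0.554. The median was 346 bp for regions positive in 1 list and 644 bp for those positive in both, so width rose in steps from no H4K5acK8ac list to both. Of the negative regions, 18.98% were under 200 bp and 3.41% reached 1000 bp, against 4.99% and 25.1% of the positive ones. These values come from the lists that chose the regions and describe the choice.

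The H3K27ac fold enrichment of a region, taken here as the authors' value for the strongest whole peak it touches, behaved differently in the 2 H3K27ac libraries. In replicate 1 its median was 3.78 in negative regions, 3.79 in regions positive in 1 list and 5.23 in those positive in both. In replicate 2 the medians were 3.32, 5.07 and 8.94. The step between no list and 1 list was therefore visible in replicate 2 and was close to nil in replicate 1. A −log10 q of at least 5 in both H3K27ac lists was reached by 6698 negative regions (25.7%) and by 59.96% of the positive ones. Most negative regions, 21146 or 81.2%, lay in H3K27ac peaks of both replicates that met no H4K5acK8ac anywhere along their length. The other 4894 were parts of peaks that met H4K5acK8ac elsewhere, and the 5 negative regions with the highest H3K27ac fold, ranked by the lower of the 2 libraries' folds, were all of that kind.

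**Figure D1:**
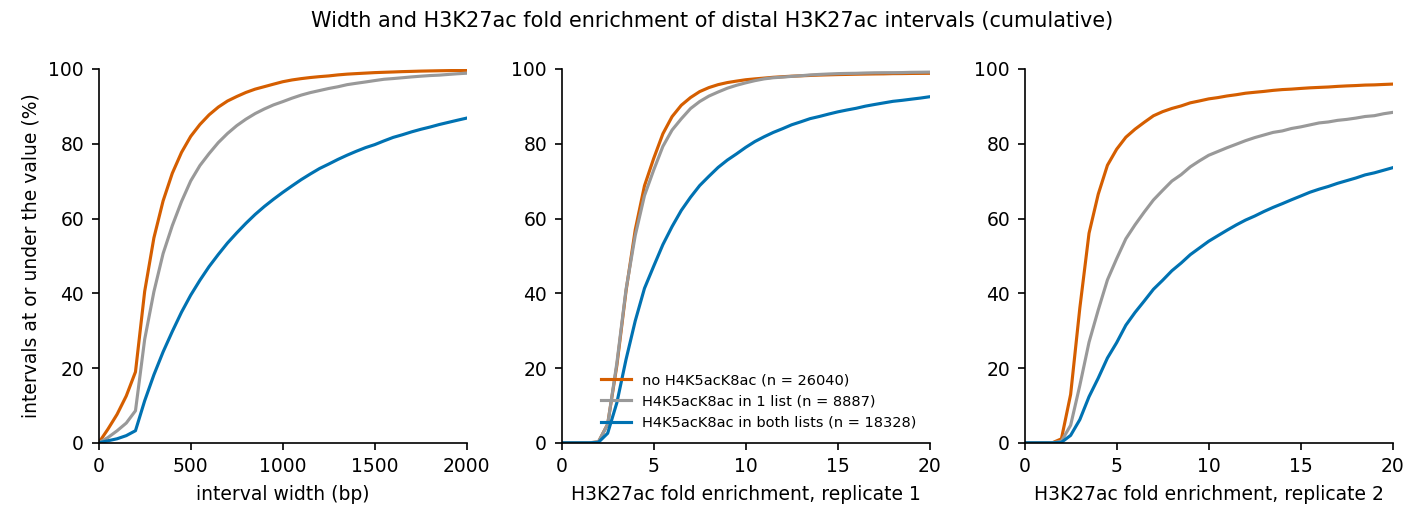
Cumulative share of distal H3K27ac regions (y axis, %) at or under a given width in bp (left) or H3K27ac fold enrichment in replicate 1 (middle) and replicate 2 (right). The curve of the 26040 H4K5acK8ac-negative regions lies on the left in width and in replicate 2, and runs with that of the regions positive in 1 list in replicate 1.

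Peaks of all 3 single H4 acetylation marks were rarer at H4K5acK8ac-negative regions than at positive ones in both replicates. H4K5ac, acetylation at the first of the lysines that H4K5acK8ac covers, met 16.7% of the negative regions in replicate 1 and 15.9% in replicate 2. Among positive regions the shares were 73.7% and 73.3%, and among all distal regions 45.8% and 45.2%. The negative share was 0.222 ± 0.00690 of the positive one, and the difference was −57.2 ± 0.277 percentage points (SD between lists, n = 2). This SD is between the H4K5ac lists on the same regions and leaves out the libraries that define the regions. Leaving out a list that the rule uses, or all lists of 1 number, gave differences from −62.1 to −54.5 points. Regions positive in 1 list stood between, with 48.1% and 47.7%. Where an H4K5ac peak was met, its median fold enrichment was 3.01 in replicate 1 and 3.02 in replicate 2 at negative regions, against 4.04 and 3.99 at positive ones. H4K5ac was thus less frequent at the negative regions, and the strongest peaks met there had a lower fold. Positive regions were wider and could meet more peaks, and the fold was not compared at matched width.

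H4K8ac, acetylation at the other lysine covered, met 27.1% of the negative regions in replicate 1 but 10.0% in replicate 2, whose list is shorter. The positive regions had 56.9% and 42.6%, and all distal regions 42.3% and 26.7%. The difference was −31.2 ± 1.93 percentage points (SD, n = 2). The negative share was 0.476 of the positive one in replicate 1 and 0.235 in replicate 2. The 2 lists were therefore alike in the difference and unlike in the level and the ratio. A peak in both lists was found at 1417 negative regions (5.44%), against 20.4% of all distal regions. H4K12ac, which lies outside the residues of H4K5acK8ac, met 10.1% and 9.05% of the negative regions. For this mark the positive regions had 43.0% and 38.2%, and all distal regions 26.9% and 23.9%, a difference between negative and positive of −31.0 ± 2.60 percentage points (SD, n = 2). Its peaks were present in both lists at 764 negative regions (2.93%), against 16.3% of all distal regions. Where a peak had to cover at least 50% of the region, the mean differences were −17.3 points for H4K8ac and −15.7 points for H4K12ac.

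**Figure D2:**
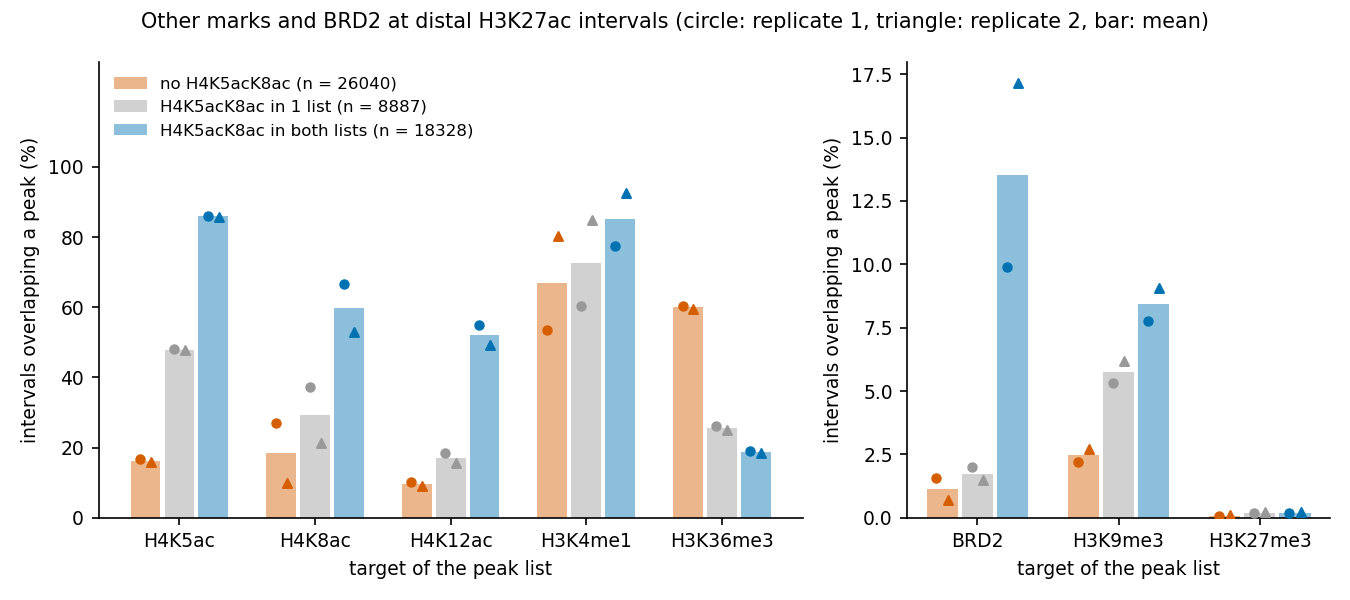
Share of distal H3K27ac regions (y axis, %) that overlap a peak of each target (x axis), for regions negative for H4K5acK8ac, positive in 1 list and positive in both; circles are replicate 1, triangles replicate 2 and bars their mean. The single H4 acetylation marks, H3K4me1, H3K9me3 and BRD2 rise from the negative regions to those positive in both lists, whereas H3K36me3 falls from 60.5% to 19.2% in replicate 1.

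Read by combination, 13469 negative regions (51.7%) had no peak in any of the 6 single H4 lists, against 11.1% of the positive regions and 31.0% of all distal regions. At the other end, 94 negative regions (0.361%) had a peak in all 6 lists, against 20.6% of the positive regions and 10.7% of all distal ones. H4K8ac without the other 2 marks, counted in at least 1 of its lists, was found at 3762 negative regions (14.4%) and at 3.65% of the positive ones, with 8.93% over all distal regions. H4K12ac alone was found at 1041 negative regions (4.00%) and at 0.889% of the positive ones, with 2.41% over all distal regions. H4K5ac alone went the other way, with 2684 negative regions (10.3%) against 16.7% of the positive ones and 13.6% of all distal regions. Which of these marks led by itself at negative regions depended on the replicate. Within the replicate 1 lists, H4K8ac alone met 4242 negative regions (16.3%, against 11.1% of all distal regions) and H4K5ac alone 2091 (8.03%, against 13.1%). Within the replicate 2 lists the order turned, with H4K8ac alone at 1387 (5.33%, against 4.13%) and H4K5ac alone at 2598 (9.98%, against 17.2%). The pairing of H4K5ac with H4K8ac, the residues of the double mark, was found without H4K12ac at 7.27% of the negative regions and at 16.5% of the positive ones.

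**Figure D3:**
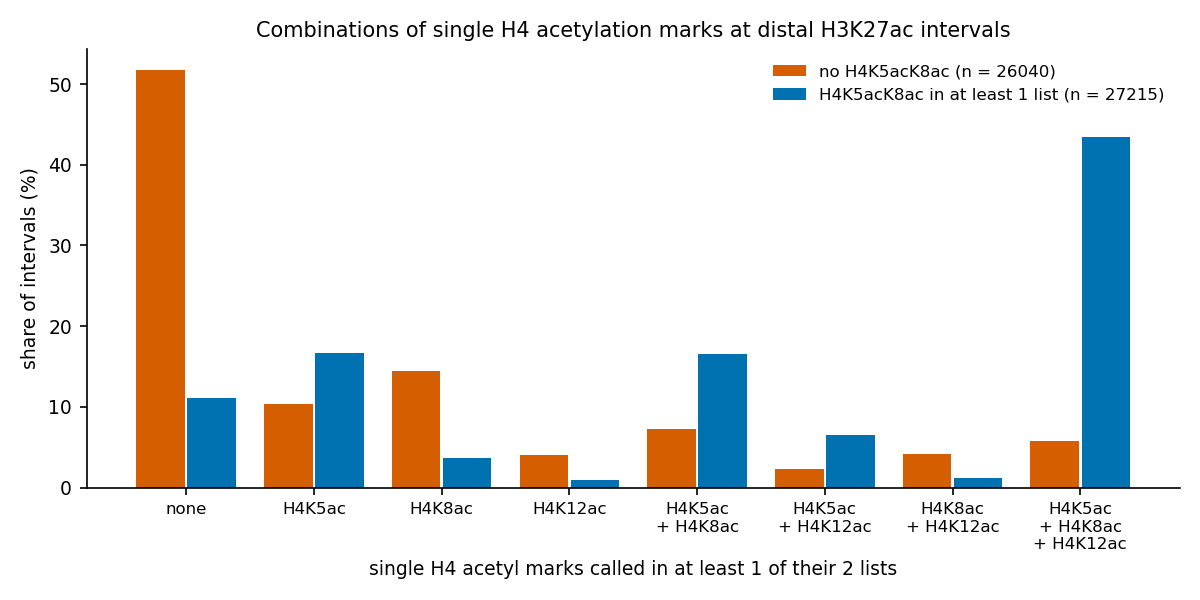
Share of H4K5acK8ac-negative and H4K5acK8ac-positive distal regions (y axis, %) in each combination of H4K5ac, H4K8ac and H4K12ac (x axis), a mark counting when called in at least 1 of its 2 lists. The largest negative class has none of the marks (51.7%) and the largest positive class all of them (43.4%).

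H3K4me1, the enhancer mark, was less frequent at H4K5acK8ac-negative regions than at positive ones, by an amount that depended on the libraries used. It met 53.6% of the negative regions in replicate 1 and 80.2% in replicate 2. The positive regions had 71.9% and 90.05%, and all distal regions 63.0% and 85.2%. The mean difference was −14.0 ± 5.96 percentage points (SD, n = 2), and the 2 lists of the mark differed from each other by more than negative and positive regions did. Both lists met 13777 negative regions (52.9%), against 62.4% of all distal regions. The difference was −23.8 points without H3K27ac replicate 1 and −7.72 points with H3K27ac peaks of −log10 q of at least 5. Without H3K27ac replicate 2 it was −34.0 points, with H3K4me1 at 43.3% of the negative regions, and without every list numbered 2 it was −36.9 points, with 33.7%. The gap was thus below those of H4K8ac and H4K12ac with both H3K27ac lists, and above both of them (−32.3 and −32.7 points) without H3K27ac replicate 2. Width went with the mark: H3K4me1 replicate 1 met 37.1% of the negative regions under 100 bp and 89.0% of those of at least 1000 bp. In regions of 200 bp to under 300 bp with an H3K27ac fold of 3 to 4 in both libraries, where negative (n = 1106) and positive (n = 530) regions are alike in width and strength, it met 46.4% and 50.2% in replicate 1, and 77.2% and 79.1% in replicate 2.

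H3K36me3, the mark of transcribed gene bodies, was the one target that was more frequent at H4K5acK8ac-negative regions than at positive ones. Its replicate 1 list met 60.5% of the negative regions and its replicate 2 list 59.6%. The positive regions had 21.4% and 20.6%, and all distal regions 40.5% and 39.7%. The negative share was 2.86 ± 0.0477 times the positive one, and the difference was 39.0 ± 0.0584 percentage points (SD, n = 2). Both lists met 14486 negative regions (55.6%), against 17.9% of the positive ones and 36.4% of all distal regions. Read the other way, 74.8% of the distal regions with H3K36me3 in both lists were negative, as were 57.8% of those with it in 1 list and 30.9% of those with it in none. The peaks met were also stronger, with a median fold of 8.02 and 7.86 at negative regions and 4.82 and 4.93 at positive ones. H3K36me3 covered the whole region at 79.9% and 79.4% of the negative regions that met it, against 38.7% and 38.0% of such positive regions. Short regions are more easily covered whole. With H3K36me3 in both lists the median width was 306 bp for negative and 992 bp for positive regions. Whole cover was also higher at negative regions for H3K4me1 replicate 1 (50.7% against 36.4%) and H3K9me3 replicate 1 (46.4% against 17.3%). It was not compared at matched width. For comparison, distal regions with H3K4me1 in both lists and no H3K27ac met H3K36me3 in 23.7% and 22.8% of cases (n = 40095).

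The size of this difference moved with the H3K27ac library. When regions were taken from H3K27ac replicate 2 alone, 38.6% of the negative regions met H3K36me3 and 17.9% of the positive ones, a difference of 20.7 percentage points. From H3K27ac replicate 1 alone the shares were 62.0% and 19.8%, a difference of 42.2 points. The peaks found in 1 H3K27ac list showed the same contrast. Of the 45388 distal H4K5acK8ac-negative peaks of H3K27ac replicate 1 that met no peak of replicate 2, 63.3% met H3K36me3 replicate 1 and 20.3% met H3K4me1 replicate 1. Of the 26686 such peaks of H3K27ac replicate 2, 18.9% met H3K36me3 replicate 1 and 28.4% met H3K4me1 replicate 1. H4K8ac replicate 1 met 29.4% of the former and 11.4% of the latter, whereas H4K8ac replicate 2 met 6.92% and 8.50%. The peaks held by H3K27ac replicate 1 alone, with a median fold of 3.07, thus lay mostly inside H3K36me3, while those of replicate 2, with a median fold of 2.98, mostly did not. The part of this library difference in the excess among the shared regions was not tested. The excess remained in every leave-out of a list that the rule uses, at 20.7 percentage points or more.

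Within H4K5acK8ac-negative regions H3K36me3 rose with width, from 54.9% of regions under 100 bp to 90.6% of those of at least 1000 bp in replicate 1. Positive regions went from 8.45% to 39.95% over the same widths and stayed below the negative ones in each class. Along H3K27ac strength the 2 H3K27ac libraries went opposite ways. By the fold in H3K27ac replicate 1, the share of negative regions with H3K36me3 replicate 1 went from 47.3% at a fold under 3 to 76.3% at 6 to 10 and 69.7% at 10 or more. By the fold in H3K27ac replicate 2, it fell from 66.4% to 40.5%. Negative regions whose whole H3K27ac peaks met no H4K5acK8ac showed the same opposition, from 52.0% to 80.3% and from 68.2% to 52.2%. H4K8ac replicate 1 met 19.1% to 41.7% of the negative regions along the replicate 1 fold and 31.1% to 10.5% along the replicate 2 fold. H4K8ac replicate 2 did not show this, going from 9.91% to 11.7% and from 9.51% to 8.74%. At positive regions the share with H3K36me3 replicate 1 rose along both folds, from 9.03% to 39.9% and from 11.7% to 26.5%. In the class of 200 bp to under 300 bp with a fold of 3 to 4 in both libraries, H3K36me3 met 51.3% and 51.1% of the negative regions and 8.68% and 8.87% of the positive ones, so the difference was present at matched width and strength. In that class H4K5ac met 13.1% and 12.5% of the negative regions and 56.8% and 58.1% of the positive ones.

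**Figure D4:**
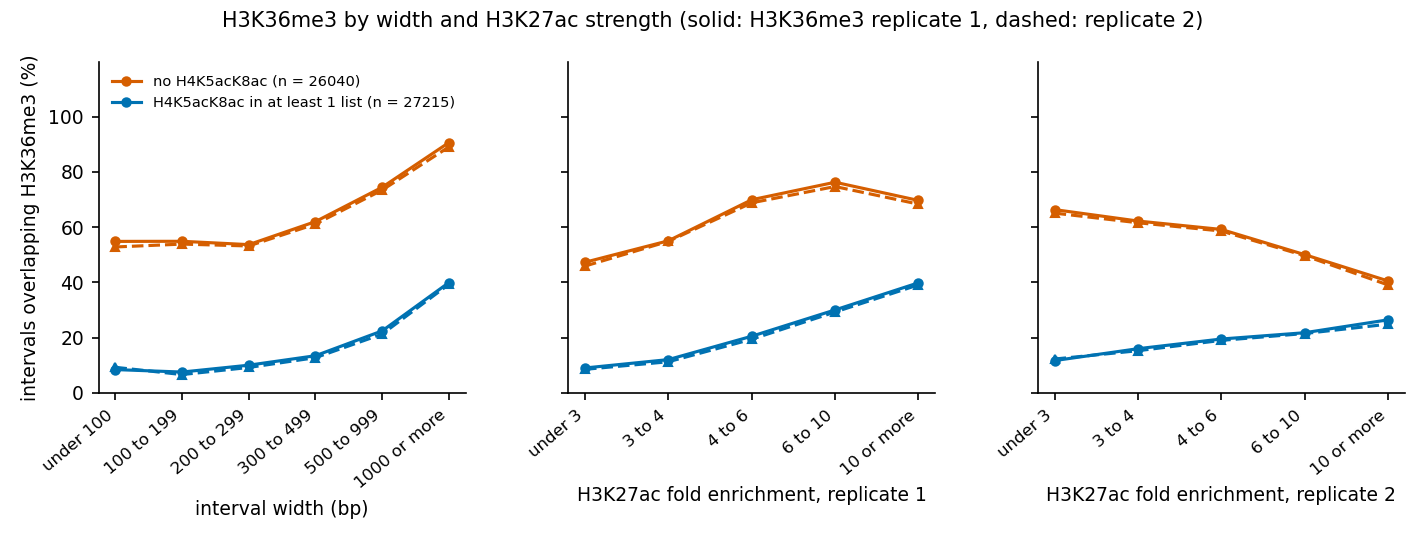
Share of regions that overlap H3K36me3 (y axis, %) by width in bp (left) and by H3K27ac fold enrichment in replicate 1 (middle) and replicate 2 (right), for H4K5acK8ac-negative and H4K5acK8ac-positive regions; solid lines are H3K36me3 replicate 1 and dashed lines replicate 2. The negative regions lie higher in every class, and their share rises along the replicate 1 fold up to 76.3% and falls along the replicate 2 fold to 40.5%.

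H4K5acK8ac-negative regions inside and outside H3K36me3 differed in some of their other marks. With H3K36me3 in both lists (n = 14486), H4K5ac met 12.5% and 12.1%, against 23.1% and 21.4% with H3K36me3 in neither list (n = 9260). H4K12ac was higher inside, with 11.7% and 10.3% against 8.06% and 7.55%. For H4K8ac the 2 lists disagreed in direction, with 29.2% against 24.4% in replicate 1 and 9.40% against 11.0% in replicate 2. The share with no single H4 acetylation mark was close, 52.7% inside and 49.8% outside. Regions inside H3K36me3 had a median width of 306 bp and lay nearer to H3K4me3 (median 14361 bp) but farther from H4K5acK8ac (4489.5 bp). Those outside had medians of 255 bp, 23626.5 bp and 1350.5 bp. H3K4me1 was close, with 52.3% and 78.6% inside H3K36me3 against 53.0% and 80.7% outside. H3K4me1 and H3K36me3 were both present in both of their lists at 7455 negative regions (28.6%), against 14.4% of the positive ones and 21.4% of all distal regions.

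Distance to the nearest H4K5acK8ac peak sorted the marks of the negative regions. The median gap was 3151 bp. A gap under 1000 bp was found for 6941 regions (26.7%), and one of at least 10000 bp for 6537 (25.1%). H3K36me3 replicate 1 rose from 32.7% at gaps under 500 bp to 75.7% at 10000 to 20000 bp, and was 43.8% at 50000 bp or more (n = 829). H4K5ac replicate 1 fell from 25.2% to 8.69% over the same range. H4K12ac stayed between 9.34% and 11.5% up to 20000 bp and was 4.10% beyond 50000 bp in replicate 1. H3K4me1 replicate 1 varied little, between 50.8% and 57.0%. Thus the regions next to H4K5acK8ac had the most H4K5ac and the least H3K36me3, and the most remote ones had little of either single H4 mark named here.

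**Figure D5:**
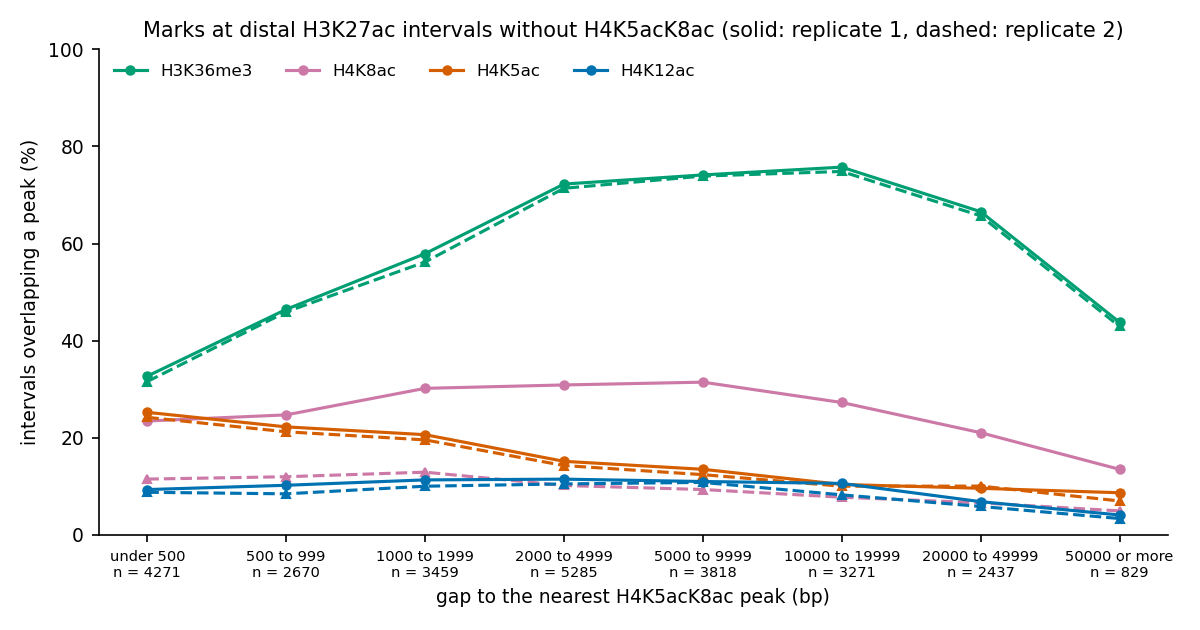
Share of the 26040 H4K5acK8ac-negative regions that overlap H3K36me3, H4K8ac, H4K5ac or H4K12ac (y axis, %) by the gap in bp to the nearest H4K5acK8ac peak (x axis, unequal classes); solid lines are replicate 1 and dashed lines replicate 2. H3K36me3 peaks at 75.7% between 10000 and 20000 bp, while H4K5ac falls from 25.2% to 8.69% in replicate 1.

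Negative regions were also grouped by their order along a chromosome. Neighbours with no H4K5acK8ac peak and no other shared H3K27ac region between them were joined into 11260 runs. Runs of positive regions were not counted, so it is not shown whether such runs are particular to negative regions. Single regions numbered 6172, and 27.1% of them had H3K36me3 in both lists. This share was 52.5% in runs of 2 to 4 regions, 73.4% in runs of 5 to 9 and 82.5% in the 236 runs of at least 10, which held 3440 regions. H4K5ac replicate 1 went from 23.2% in single regions to 10.6% in runs of at least 10. Longer runs thus had more H3K36me3 and less H4K5ac. The longest run held 36 regions over 95846 bp (chr1:1719592-1815437), of which 29 had H3K36me3 in both lists, 26 had H3K4me1 in both and 23 had no single H4 mark. The run of 34 regions at chr6:151217383-151307315 had H3K36me3 in both lists at 32 regions and H3K4me1 in both at 4. That at chr2:36721590-36776707 held 33 regions, of which 32 had H3K36me3 and 13 H3K4me1 in both lists. Over all negative regions, 55.6% had H3K36me3 in both lists, 52.9% had H3K4me1 in both and 51.7% had no single H4 mark. Over all distal regions these shares were 36.4%, 62.4% and 31.0%. By chromosome, the share of distal regions that were negative ranged from 40.1% to 66.8% with a median of 47.6%, highest on chromosome 19. H3K36me3 was more frequent at negative than at positive regions on 23 of 23 chromosomes with at least 100 distal regions, in both H3K36me3 lists.

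The repressive marks were rare at H4K5acK8ac-negative regions and, over all regions, rarer than at positive ones. H3K9me3 met 2.22% and 2.70% of the negative regions, against 6.97% and 8.14% of the positive ones and 4.65% and 5.48% of all distal regions. The difference was −5.09 ± 0.487 percentage points (SD, n = 2). Both H3K9me3 lists met 434 negative regions (1.67%), against 3.48% of all distal regions. H3K9me3 was concentrated where H3K4me1 was missing: it met 7.00% and 8.74% of the negative regions with H3K4me1 in neither list and 0.813% and 0.965% of those with it in both. H3K27me3 met 15 negative regions in replicate 1 and 27 in replicate 2, or 0.0576% and 0.104%. Positive regions had 0.184% and 0.217%, and all distal regions 0.122% and 0.161%. Both H3K27me3 lists met 9 negative regions (0.0346%), against 0.0601% of all distal regions. Its difference of −0.120 ± 0.00920 percentage points (SD, n = 2) was −0.0650 without H3K27ac replicate 1 and −0.0748 without H4K5acK8ac replicate 2. At these counts H3K27me3 was close to absent from both kinds of region. In the class of like width and H3K27ac fold, H3K9me3 met 1.90% and 2.26% of the negative regions and 3.77% of the positive ones in either list, a smaller gap. With at least 50% of the region covered, the mean differences were −2.13 points for H3K9me3 and −0.0378 for H3K27me3. In the class of like width and fold H3K27me3 met 0.181% and 0.271% of the 1106 negative regions and 0 of the 530 positive ones. The count of 0 allows a share of up to 0.566%, which is above both negative shares, so no direction is shown. None of the 8 targets was met in any list at 787 negative regions (3.02%), against 1.47% of the positive regions and 2.23% of all distal ones.

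BRD2, a reader of acetylated histones, was found at few H4K5acK8ac-negative regions. Its peaks met 412 of them (1.58%) in replicate 1 and 186 (0.714%) in replicate 2. The positive regions had 7.32% and 12.03%, and all distal regions 4.52% and 6.50%. The difference was −8.53 ± 3.94 percentage points (SD, n = 2), and it was −13.4 points when all lists numbered 1 were left out. Regions positive in 1 list, with 2.01% and 1.47%, lay near the negative ones, and those positive in both had 9.90% and 17.1%. Of the negative regions that met BRD2, 21.6% and 41.9% met a peak with a q of at most 0.05. Of such positive regions, which were wider and could meet more peaks, 40.7% and 75.7% did. Thus fewer negative regions met BRD2, and most of those that did met only peaks with a q above 0.05. In replicate 1 most positive regions with BRD2 also met only such peaks, which were 64.7% of that list. In the class of like width and H3K27ac fold described above, BRD2 met 1.27% and 0.362% of the negative regions and 2.45% and 3.02% of the positive ones, a smaller gap. Where a BRD2 peak had to cover at least 50% of the region, the mean difference was −1.45 points. Both BRD2 lists met 5 negative regions (0.0192%), against 1130 positive ones (4.15%) and 2.13% of all distal regions. Negative regions with BRD2 in 1 list (n = 588) had no single H4 mark in 31.6% of cases, against 52.2% of those without BRD2. Those with BRD2 were also wider, with a median of 324.5 bp against 279 bp, and these shares were not compared at matched width.

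The 5 negative regions with BRD2 in both lists show how weak these calls were (hg19, 1-based). The strongest, chr1:151274424-151274931, had BRD2 folds of 3.23 and 3.76 with −log10 q of 1.34 and 1.99, H3K36me3 folds of 13.5 and 13.5, no H3K4me1, and H4K12ac in 1 list. The region chr17:44842097-44842943 had no H3K36me3 but H3K4me1 folds of 5.74 and 6.65, with H4K8ac and H4K12ac in 1 list each. At chr10:3124397-3125579, 1183 bp wide, H3K36me3 folds were 9.32 and 8.16 and H4K5ac was called in 1 list. The others were chr5:14006939-14007186 and chr20:61839833-61840208, each with H4K8ac in 1 list. All 5 thus had a peak in 1 or 2 of the 6 single H4 lists and lay between 825 and 7496 bp from the nearest H4K5acK8ac peak. No peak in any of these 6 lists was found at 51.7% of all negative regions and 31.0% of all distal regions, and 5 regions are few.

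Some negative regions were wide and held either all or none of the single H4 marks. The widest with a peak in all 6 H4 lists was chr21:45723371-45726810, 3440 bp, with H3K27ac folds of 6.08 and 6.29, H3K4me1 folds of 9.83 and 14.2 and H3K36me3 folds of 5.59 and 6.74. Its nearest H4K5acK8ac peak was 2339 bp away, and no BRD2 peak met it. The widest with none was chr11:123406547-123410151, 3605 bp, with H3K27ac folds of 10.1 and 9.43, H3K4me1 folds of 11.7 and 24.96 and H3K36me3 folds of 6.66 and 7.86. It lay 9895 bp from H4K5acK8ac and 59756 bp from H3K4me3. These 2 regions thus differed in H4 acetylation calls, while both had H3K27ac and H3K4me1 folds above the medians of negative regions with these marks. Their H3K36me3 folds were not above the medians of 8.02 and 7.86 at negative regions that met H3K36me3. The region with the highest H3K27ac fold by the lower of the 2 libraries' values, chr1:24123085-24124032 with 67.9 and 44.9, was part of H3K27ac peaks of 5311 and 8230 bp that met H4K5acK8ac elsewhere, 752 bp from its edge.

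At the borders of the rule the values changed by degrees. Negative regions less than 100 bp from an H4K5acK8ac peak (n = 788) met H4K5ac in 30.7% and 29.2% of cases and H3K36me3 in 24.5% and 24.9%. Positive regions sharing at most 100 bp with one (n = 1366) had 41.5% and 42.1% for H4K5ac and 17.3% and 17.1% for H3K36me3. Negative regions within 100 bp beyond the H3K4me3 limit (n = 180) met H3K36me3 in 56.1% and 52.2% of cases. H4K5acK8ac-negative intervals within 100 bp on the other side of it, too close to count as distal (n = 214), did so in 61.7% and 59.3%.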

How the data were processed

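ChIP-seq peak lists of 11 targets with 2 libraries each were used as deposited. Reads were aligned with BWA to hg19 and peaks called with MACS2, per the submitters' processing notes; settings and the control used are not given in the sources used here. In the deposited lists the fold enrichment is a ratio to local background, and the authors' peak significance is given as −log10 of p and of q; the deposited score was not used. Read depth is unknown.

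Intervals, overlaps of at least 1 bp and gaps came from scripts in Python 3.11.15 (pandas 2.3.3, numpy 2.4.6; intervals of shares from scipy 1.17.1; plots from matplotlib 3.10.9); the overlap code was tested on 26000 simulated intervals and recovered each share with a gap of 0 percentage points. Where several peaks met a region, the strongest was used. Shares are given per list, with SD over the 2 lists. The regions, the named classes and the alternatives were chosen with earlier results of these data known, and alternatives by list left out, distance and whole peak were added after seeing the data. Named regions are the 5 strongest with BRD2 in both lists, and those at the top by H3K27ac fold, by width with all 6 single H4 lists and by width with none. Runs were named after their values were seen. No hg19 sequence or gene annotation was used here, so regions are given by coordinates.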

Additional observations from a re-analysis of the deposited data

How the results depend on the processing

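Of 185 values under 19 alternative settings, 99 moved by less than the spread between lists (for the number of regions, by less than 1.5 times) and 86 by more. All 152 differences in share, negative minus positive regions in percentage points, kept their sign. The class of like width and H3K27ac fold was not among these settings. In it the H3K27me3 shares did not keep the sign, at counts too low to show a direction, as given above. No result rests on a test. Read depth is unknown, so marks too weak to be called are not counted.

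With H3K27ac peaks of −log10 q of at least 5, the number of negative regions was 6698 and the differences were −57.6 for H4K5ac, −33.6 for H4K8ac, −35.0 for H4K12ac, −7.72 for H3K4me1, 40.6 for H3K36me3, −6.37 for H3K9me3 and −0.180 for H3K27me3. Asking that a mark cover at least 50% of a region gave −48.2, −17.3 and −15.7 for H4K5ac, H4K8ac and H4K12ac, 41.0 for H3K36me3, −2.13 for H3K9me3, −0.0378 for H3K27me3 and −1.45 for BRD2. Searching 250 bp to either side of the region midpoint gave −55.7, −27.3 and −27.9 for the 3 H4 marks, 42.7 for H3K36me3, −3.44 for H3K9me3 and −0.0969 for H3K27me3. A distance of 5000 bp from H3K4me3 gave 38.6 for H3K36me3 and −0.131 for H3K27me3. Regions of at least 200 bp gave −56.9 for H4K5ac and 39.7 for H3K36me3, and autosomes alone 39.1 for H3K36me3.

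Settings chosen after seeing the data gave the following. Against regions positive in both lists, the width ratio was 0.435 and the differences −69.6, −41.1 and −42.4 for H4K5ac, H4K8ac and H4K12ac, 41.2 for H3K36me3 and −5.97 for H3K9me3. Negative regions whose whole H3K27ac peaks met no H4K5acK8ac gave −59.1 for H4K5ac, 43.2 for H3K36me3 and −0.108 for H3K27me3. The 6537 regions at least 10000 bp from H4K5acK8ac gave −63.7 for H4K5ac, −34.7 for H4K8ac, 46.8 for H3K36me3, −5.77 for H3K9me3 and −0.0932 for H3K27me3.

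Same-numbered lists of the 8 targets that the rule did not use were not shown to be paired. Over the 28 pairs of these targets, r across regions of their replicate differences lay between −0.0386 and 0.0198. H3K27ac, H3K4me3 and H4K5acK8ac were not in this comparison, so it cannot show whether their lists are paired with others. At negative peaks held by 1 H3K27ac list, H4K8ac replicate 1 met 29.4% for H3K27ac replicate 1 and 11.4% for replicate 2. H4K8ac replicate 2 met 6.92% and 8.50%. With the replicate block, in which negative regions were found within lists of 1 number, there were 62721 on average. The width ratio was then 0.471 and the differences −61.9, −35.7 and −38.3 for H4K5ac, H4K8ac and H4K12ac, −28.9 for H3K4me1, 29.8 for H3K36me3 and −4.58 for H3K9me3. A region then needs 1 H3K27ac list in place of both, which raises the count.

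Leaving out a list or all lists of 1 number gave 26158 to 72812 negative regions, the count being 47149 or more wherever an H3K27ac list was dropped. The width ratio ranged from 0.412 to 0.600. Differences ranged from −62.1 to −54.5 for H4K5ac, −40.6 to −30.9 for H4K8ac, −39.2 to −31.3 for H4K12ac, −36.9 to −14.0 for H3K4me1, 20.7 to 42.2 for H3K36me3, −5.38 to −3.46 for H3K9me3, −0.151 to −0.0650 for H3K27me3 and −13.4 to −6.24 for BRD2. The lowest H3K36me3 value came without H3K27ac replicate 1, followed by 20.9 without all lists numbered 1; the cause was not tested.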
